A study of Mus musculus with 2 samples.

Results

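Gata6, Krt79 and Pglyrp3 are 3 of the 480 genes of a Xenium panel and were chosen by name. Every decoded molecule of these genes with a quality score of at least 20 was used. The Xenium assay reads out individual RNA molecules where they lie in the tissue. The study compared 2 sections of whole skin from female B6/129 mice, fixed in formalin, embedded in paraffin and cut at 5 µm: 1 section labelled WT control and 1 labelled Utx-cKO. In the Utx-cKO line, Krt14-Cre deletes Kdm6a (also called Utx), a histone demethylase gene, in tissues that express keratin 14, which include epidermis, hair follicles and sebaceous glands, and the other cells of the skin keep the gene. The labels used here state neither the animals behind each section, nor their age, nor the skin site, nor whether the control carried Cre or floxed alleles. Each section held 4 separate strips of tissue, numbered 1 to 4. A strip's number pairs nothing between sections. With 1 section per group no difference was tested, and the exact 95% intervals given throughout cover counting error alone.

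A hair follicle opens to the skin surface through a canal, and the sebaceous gland on its flank empties lipid into that canal through a duct. Gata6 encodes a zinc-finger transcription factor known from the cells of the sebaceous duct and the junction zone, where it acts in duct cell fate. Krt79 encodes a type II keratin of the cells that line the hair canal and the duct. Pglyrp3 encodes a secreted peptidoglycan recognition protein that binds bacterial cell walls and can kill bacteria.

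Of the 3 genes, Krt79 matched the RefSeq promoter table (GRCm38.p6), which holds 250 bases before and 50 bases after each annotated start. The stretch is shown because Gata6 and Krt79 were often detected in the same cells. The letters AGATAA, a form of the motif that GATA factors bind, were searched on both strands. They occurred once, within the annotated transcript, with their first base at position 31 when the annotated start is position 1. The window at chr15:101940277-101940306, minus strand, has the match in capitals.
Krt79 start region: ccagctgggaaaAGATAAaaaggtgtttgg
Of 32851 such 300-base promoters, 11.2% held the same letters on either strand. The match is a description of these letters and no evidence of binding.

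Krt79 was abundant, and the other 2 genes were sparse. The WT section held 11127 Krt79, 577 Gata6 and 578 Pglyrp3 molecules, and the Utx-cKO section 21558, 834 and 847. Most lay inside segmented cells: 96.6% and 96.4% of Krt79, 97.2% and 96.1% of Pglyrp3, and 89.9% and 93.8% of Gata6, against 74.7% and 84.9% of all gene transcripts. Gata6 molecules were decoded with low quality. Of all Gata6 molecules, 49.0% in WT and 45.4% in Utx-cKO reached a score of 20, and of these 43.7% and 33.2% reached 30, against 83.1% and 77% for all genes. Each of the 3 genes exceeded the highest of 20 negative control probes, which had 117 counts in WT and 199 in Utx-cKO, where the median probe had 5 and 9.5.

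Cells with at least 20 transcripts numbered 33263 in WT and 37395 in Utx-cKO. When cells were clustered without the 3 genes, keratinocyte markers put 10 of 20 clusters in the epithelium, which then held 14561 cells in WT and 18714 in Utx-cKO. Cluster 16 among them was led by the melanocyte genes Dct and Pmel, with 26.7% of its counts in keratinocyte markers. A cluster led by Fa2h and Cers4 entered at 7.49%, near the limit of 7%, and a cluster led by Kit and Gata2 was left out at 6.52%. Median depth in these epithelial cells was 70 transcripts in WT and 57 in Utx-cKO. Kdm6a, the deleted gene, had 2672 CPM (a gene's count over all panel counts of the same cells, scaled to a common total) in WT and 1759 CPM in Utx-cKO among epithelial cells with at least 2 molecules of the 3 genes together, a log2 ratio of -0.60 (-0.76 to -0.45). Whether its probes lie in the deleted part was not stated. That ratio was -0.24 without WT strip 3, and the strips overlapped. The median log2 ratio of Utx-cKO over WT was 0.12 over the 439 genes compared in epithelial cells and 0.10 over the 471 compared in all cells.

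All 3 genes were highest in the same cluster, number 10, which was called upper follicle and duct-like because markers of that list such as Sprr1a and Krt17 were among its 10 leading genes. Krt79 stood there at 46277 CPM (44661 to 47936) in the WT section and 57413 CPM (56109 to 58738) in the Utx-cKO one, and was detected in 82.0% and 83.0% of the cells. Gata6 stood at 1555 CPM (1270 to 1884) and 1332 CPM (1140 to 1547), and Pglyrp3 at 1599 CPM (1311 to 1933) and 1667 CPM (1451 to 1906). Outside the epithelium the levels were 91.9 and 174 CPM for Gata6, 177 and 408 CPM for Krt79, and 97.9 and 139 CPM for Pglyrp3. Cluster 3, which stays unnamed and was led by Sostdc1, Cxadr, Cd3e and Epcam, came next for Gata6 among the epithelial clusters, at 1038 CPM (877 to 1221) in the WT section and 1188 CPM (1035 to 1358) in the Utx-cKO one. In Utx-cKO the Gata6 intervals of clusters 10 and 3 overlapped. The label of follicle duct genes thus matched the markers of the cluster where all 3 were highest, but none of them was confined to it.

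The genes parted in the sebaceous gland. There were 2 sebaceous gland-like clusters, 1 led by Fa2h and Cers4, which serve ceramide and fatty acid hydroxylation in sebocytes, and 1 led by Elovl7, Cers5 and Cidea. In the Fa2h-led cluster Krt79 remained high, at 19830 CPM (18897 to 20796) in the WT section and 20503 CPM (19838 to 21184) in the Utx-cKO one. Gata6 was at 105 CPM (48.1 to 200) and 108 CPM (65.3 to 169) there, close to its level outside the epithelium in WT and below it in Utx-cKO. Pglyrp3 was at 35.1 CPM (7.23 to 102) and 85.6 CPM (47.9 to 141), from 3 and 15 counts. In the Elovl7-led cluster Gata6 was higher, at 707 CPM (529.5 to 925) and 618 CPM (483 to 780), beside Krt79 at 22687 and 26241 CPM and Pglyrp3 at 200 and 226 CPM. Krt79 was therefore no marker of ducts alone: 1697 and 1701 of its 10271 epithelial counts in WT came from the 2 sebaceous gland-like clusters.

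Pglyrp3 was found in further clusters. In cluster 17, unnamed and led by Serpinb11, Krt17 and Lhx2, it reached 1155 CPM (848 to 1535) in the WT section, an interval that overlapped that of cluster 10. In the Utx-cKO section it was at 941 CPM (659 to 1303) there, and Krt79 stood at 3120 and 5360 CPM. Cluster 17 was not particular to Pglyrp3. Gata6 stood there at 418 CPM (243 to 669) and 628 CPM (402 to 934), intervals that overlapped those of the Elovl7-led cluster. In the granular and cornified layer-like cluster Pglyrp3 was at 382 CPM (309 to 467) and 554 CPM (467 to 652). Gata6 had 2 and 12 counts in that cluster, or 8.05 CPM (0.974 to 29.1) and 46.2 CPM (23.8 to 80.6). The hair follicle stem and outer sheath-like cluster, led by Lhx2 and Tbx1, was low for each gene, with 101 and 60.1 CPM for Gata6, 283 and 301 CPM for Krt79, and 119 and 113 CPM for Pglyrp3. Low shares remained in the non-epithelial cluster led by Slc16a3 and Cryab, where 0.154% and 0.326% of cells held Gata6, 0.411% and 0.922% Krt79, and 0.308% and 0.814% Pglyrp3, at median depths of 118 and 61 transcripts. Thinned to 20 transcripts a cell, Gata6 was found in 0.790% and 1.03% of epithelial cells and in 0.103% and 0.109% of cells of that cluster, and Pglyrp3 in 0.755% and 0.908% against 0.154% and 0.271%.

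**Figure D1:**
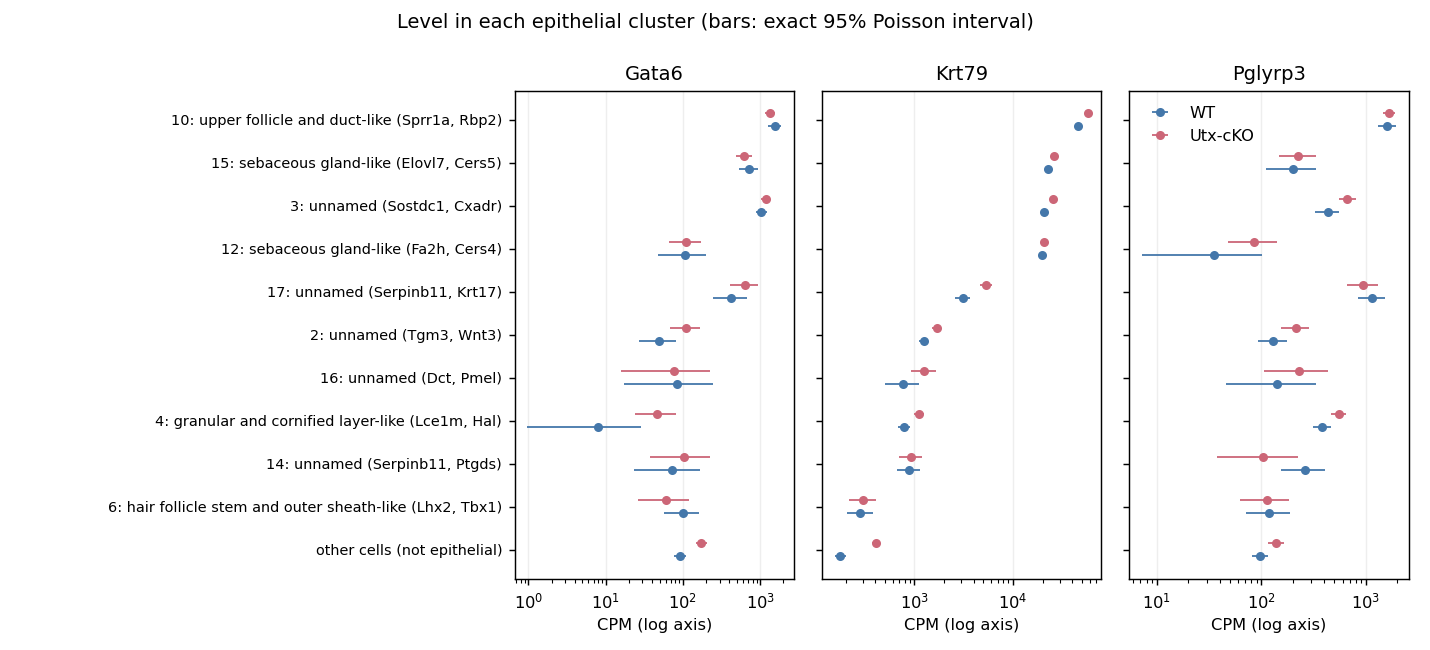
Level of each gene (CPM, log axes) in the 10 epithelial clusters, named by markers and their 2 leading genes, and in all other cells, for WT (blue) and Utx-cKO (red), with exact 95% Poisson intervals. All 3 genes are highest in the upper follicle and duct-like cluster, while in the Fa2h-led sebaceous gland-like cluster Krt79 is at 19830 and 20503 CPM and Gata6 at 105 and 108 CPM.

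Cells with Gata6 mostly held Krt79 too. Among epithelial cells, 349 in WT and 520 in Utx-cKO had Gata6, and 264 and 392 of them had Krt79. That is 75.6% (70.8 to 80.1) and 75.4% (71.5 to 79.0), against 22.2% and 32.9% of the cells without Gata6. Deep cells hold more of every gene, so the count was set against the number given by each gene's share within 10 equal classes of depth. The cells with both were 3.12 times (2.75 to 3.51) that number in WT and 2.11 times (1.91 to 2.33) in Utx-cKO. The lower multiple in Utx-cKO stands beside a larger share of all epithelial cells with Krt79, 34% against 23.5%.

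Pglyrp3 shared fewer cells with the other genes. Of the 380 WT and 582 Utx-cKO epithelial cells with Pglyrp3, 38.9% and 56.0% had Krt79, which is 1.57 times (1.32 to 1.84) and 1.48 times (1.32 to 1.65) the depth-matched number. Gata6 and Pglyrp3 met in 29 and 37 cells, 2.95 times (1.98 to 4.24) and 1.98 times (1.40 to 2.73) the depth-matched number. When cells were also matched on their Krt79 count, these multiples were 1.96 (1.31 to 2.81) and 1.26 (0.888 to 1.74). Over the nucleus alone the depth-matched multiples were 1.86 (0.805 to 3.67) and 1.36 (0.650 to 2.49), with intervals that include 1. All 3 genes were found in 25 WT and 31 Utx-cKO cells. No cell held more than 3 molecules of Gata6 or of Pglyrp3, while Krt79 reached 22 in WT and 25 in Utx-cKO. Within 10 µm of 63.3% of WT and 65.9% of Utx-cKO Gata6 molecules lay a Krt79 molecule, against 35.8% and 48.0% of all transcripts of epithelial cells.

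Among cells that were not sebocytes, the share with Gata6 was higher in each higher class of Krt79 count. Sebocytes are defined here as cells with at least 2 molecules of Fa2h and Cers4 together, 834 in WT and 1690 in Utx-cKO, of which 734 and 1577 lay in epithelial clusters and were counted in these classes. In WT, Gata6 was found in 0.771% (0.616 to 0.953) of such cells with 0 Krt79 molecules, 6.41% with 1, 8.37% with 2 to 4, 13.3% with 5 to 9 and 24.6% (14.8 to 36.9) with 10 or more. In Utx-cKO the shares were 1.02%, 4.50%, 6.83%, 11.5% and 18.6% (12.6 to 25.9). Depth differed between the classes, with medians of 67 to 141 transcripts in WT for the lowest and the highest class. On the CPM scale, which divides by depth, Gata6 was higher in the top class than in the lowest, with 1637 against 97.0 CPM (WT) and 1482 against 163 CPM (Utx-cKO).

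Sebocytes with 1 to 9 Krt79 molecules held Gata6 less often than other cells of the same class. With 2 to 4 Krt79 molecules, Gata6 was found in 2.80% (1.29 to 5.24) of the WT sebocytes and 1.67% (0.865 to 2.90) of the Utx-cKO ones, at median depths of 127.5 and 120 transcripts, against 67 and 52 in the other cells of that class. Pglyrp3 was found in 0.311% (0.00786 to 1.72) and 0.417% (0.0861 to 1.21) of these sebocytes, from 1 and 3 cells. In cells that were not sebocytes, Pglyrp3 went from 2.10% and 2.09% at 0 Krt79 molecules to 9.23% (3.46 to 19.0) and 21.4% (15 to 29.0) at 10 or more. Of all epithelial cells with Pglyrp3, 232 of 380 in WT and 256 of 582 in Utx-cKO had 0 Krt79 molecules.

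**Figure D2:**
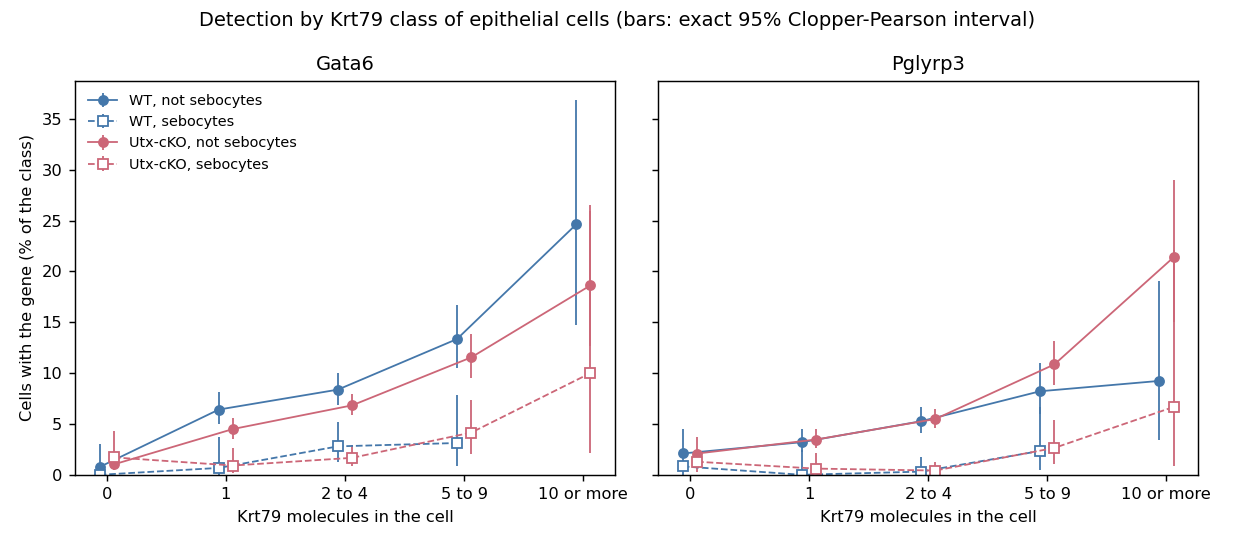
Share of epithelial cells with Gata6 (left) and Pglyrp3 (right) by the number of Krt79 molecules in the cell, for WT (blue) and Utx-cKO (red), with sebocytes as open squares and other cells as filled circles, and exact 95% Clopper-Pearson intervals. In cells that are not sebocytes the Gata6 share goes from 0.771% to 24.6% in WT and from 1.02% to 18.6% in Utx-cKO, and the sebocyte shares lie below them where 1 or more Krt79 molecules were found.

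In the tissue Krt79 lay in compact patches, most of which included sebocytes. Linking Krt79 molecules up to 15 µm apart gave 137 patches of at least 20 molecules in WT and 225 in Utx-cKO, and these held 90.1% and 94.3% of all Krt79. They held 60.0% and 64.9% of Gata6 and 39.8% and 53.2% of Pglyrp3. A sebocyte was part of 73.7% of WT and 74.2% of Utx-cKO patches. Gata6 was found in 81.0% and 68.0% of the patches, Pglyrp3 in 62.8% and 61.3%, and both in 56.2% and 52.0%. Patches without a sebocyte had Gata6 in 77.8% and 63.8% and Pglyrp3 in 61.1% and 58.6%. A 5 µm section cuts a follicle in 1 plane, so a patch is not a whole duct. Whether each patch was hair canal, duct or gland was not tested.

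**Figure D3:**
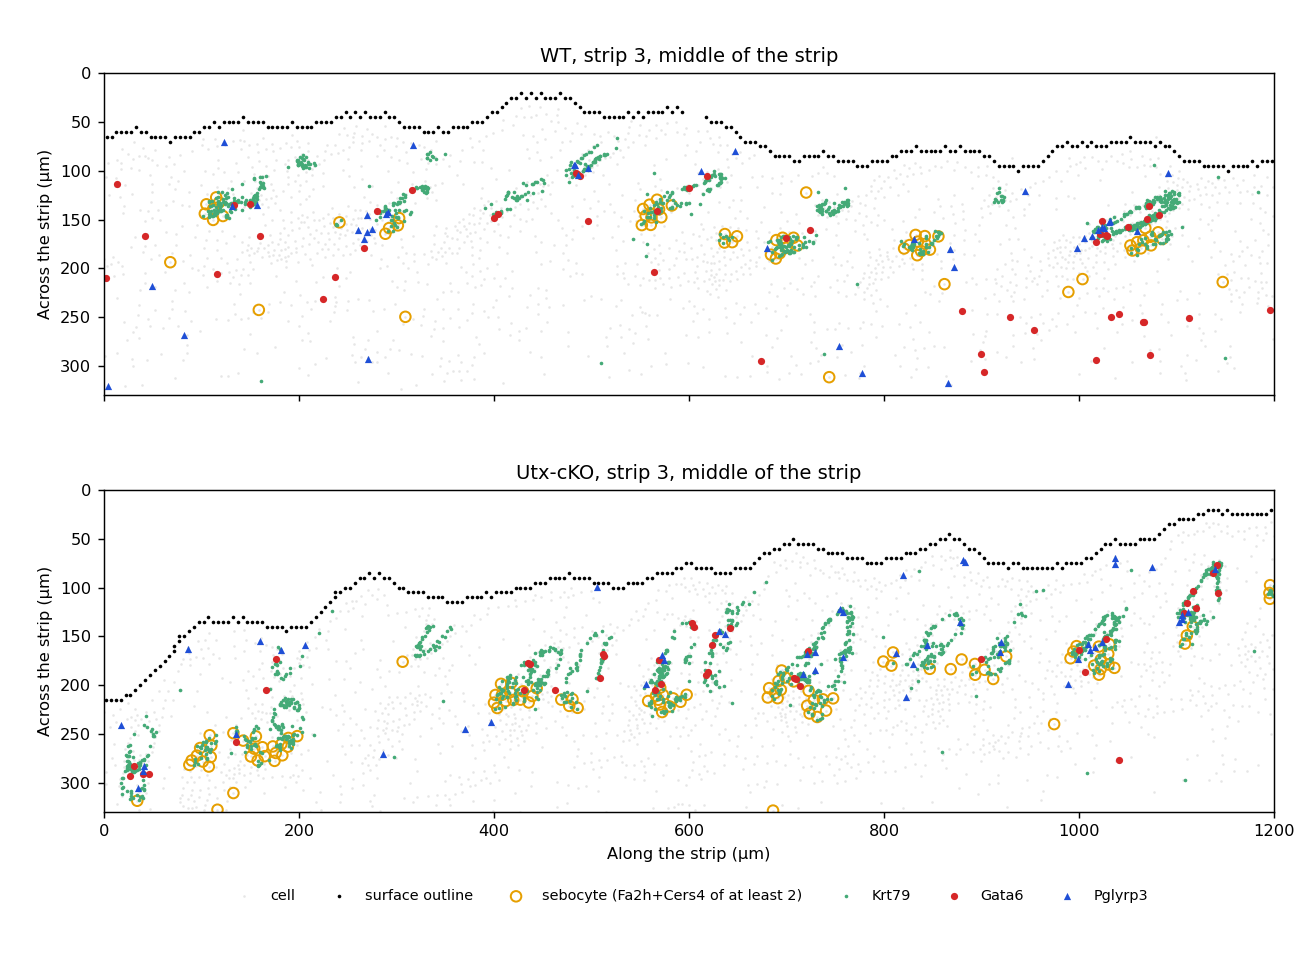
Molecules of Krt79 (green), Gata6 (red circles) and Pglyrp3 (blue triangles), sebocytes (open orange circles), cells (grey) and the surface outline (black) in the middle 1200 µm of strip 3 of each section, in µm along and across the strip. Krt79 lies in patches below the surface, many with sebocytes. The window holds 827 Krt79 molecules and 63 sebocytes in WT against 1297 and 110 in Utx-cKO over the whole depth of the strip, of which the upper part is drawn.

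Gata6 molecules were seldom inside sebocytes. Of all Gata6 molecules, 35.3% in WT and 36.2% in Utx-cKO lay within 30 µm of a sebocyte, and of those in epithelial cells 48.5% and 46.0%, against 27.6% and 38.5% of all transcripts of epithelial cells. Over all molecules on the strips, the median distance of Gata6 to the centre of the nearest sebocyte was 46.5 µm (41.0 to 51.5) in WT and 42.6 µm (38.4 to 46.6) in Utx-cKO. Inside epithelial cells alone it was 30.5 µm (27.3 to 34.8) and 32.3 µm (29.3 to 35.5), against 63.5 and 47.7 µm for all transcripts of epithelial cells. Over all molecules Krt79 was nearest, with medians of 32.5 µm (31.5 to 33.6) and 26.9 µm (26.3 to 27.5), and Pglyrp3 farthest, with 60.7 µm (55.4 to 68.6) and 56.3 µm (50.8 to 61.8). With cells of the sebaceous gland-like clusters taken as sebocytes, the Krt79 medians were 17.5 and 15.4 µm, with 32.7 and 33.4 µm for Gata6. Inside epithelial cells the Krt79 medians were 31.7 and 26.3 µm, so in WT they did not stand apart from those of Gata6. Sebocytes themselves held 18.6% and 20.1% of Krt79, 2.98% and 4.45% of Gata6, and 0.870% and 2.26% of Pglyrp3. Of molecules in epithelial cells they held 19.9% and 21.9% of Krt79, 4.04% and 6.34% of Gata6, and 1.22% and 2.86% of Pglyrp3. For all transcripts of epithelial cells these shares were 8.18% and 15.2%. In strips the Gata6 median inside epithelial cells ran from 21.8 µm in WT strip 3, the WT strip with most sebocytes, to 54.2 µm in WT strip 4, and from 24.0 to 63.2 µm in the Utx-cKO strips 3 and 4. The median of all epithelial transcripts was also lowest in strip 3 and highest in strip 4 of both sections.

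By steps away from sebocytes, the level of Gata6 was low within them, high next to them and low again far away. In WT it was 149 CPM (83.4 to 246) in sebocytes, 621 CPM (472 to 803) within 15 µm, 749 CPM (615 to 903) at 15 to 30 µm, 418 CPM at 30 to 60 µm and 134 CPM at 60 to 100 µm. In Utx-cKO it was 173, 722, 696, 772 and 386 CPM in the same steps, so that the zone of high Gata6 reached 60 µm. Krt79 in WT was highest in sebocytes (20330 CPM), and went from 12955 CPM within 15 µm to 5176 CPM at 60 to 100 µm. In Utx-cKO it stayed between 19771 and 21256 CPM from the sebocytes out to 60 µm and was 12439 CPM at 60 to 100 µm. Pglyrp3 was lowest in sebocytes, at 49.7 and 88.8 CPM, and still 285 and 374 CPM beyond 100 µm.

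The molecules lay on the surface side of the glands. Of molecules in epithelial cells that were not sebocytes and within 100 µm of one, 89.6% (85.6 to 92.7) of Gata6, 89.2% of Krt79 and 81.2% (76.5 to 85.3) of Pglyrp3 were nearer to the surface than that sebocyte in WT. In Utx-cKO these shares were 86.9% (83.6 to 89.8), 90.0% and 83.5% (79.9 to 86.7). All transcripts of such cells gave 73.2% and 70.0%. The median offset toward the surface was 17.8 and 21.5 µm for Gata6, 24.0 and 23.5 µm for Krt79, and 22.4 and 24.0 µm for Pglyrp3. For all transcripts of such cells it was 23.1 and 13.3 µm, so in WT the offsets of Gata6 and Pglyrp3 were below it.

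Below the surface, Gata6, Krt79 and Pglyrp3 were all highest in 1 band, and Pglyrp3 kept the largest part of its highest level in the outermost layer. In WT the levels at 50 to 75 µm were 1131 CPM (938 to 1352) for Gata6, 29082 CPM (28065 to 30127) for Krt79 and 754 CPM (598 to 938) for Pglyrp3, each the highest of the steps down to 200 µm. In the outer 25 µm they were 17.8 CPM (7.67 to 35), 375 CPM (321 to 436) and 266 CPM (221 to 319). Pglyrp3 thus kept a larger part of its highest level in the outer step than Gata6 or Krt79. Its outer level was not above the 308 CPM (227 to 408) at 25 to 50 µm or its 333 CPM over all WT epithelial cells. The interval overlapped that at 100 to 150 µm (183 to 295). The outer step of Utx-cKO held 410 CPM (348 to 480) of Pglyrp3, beside 486 CPM at 25 to 50 µm. In Utx-cKO the band reached deeper. At 75 to 100 µm it held 1191 CPM (1019 to 1383) of Gata6, 34006 CPM of Krt79 and 907 CPM of Pglyrp3, against 755, 18043 and 478 CPM in WT, and at 100 to 150 µm 544, 20336 and 426 CPM against 257, 7020 and 234 CPM. At 50 to 75 µm Gata6 did not stand apart between the sections (1131 and 1098 CPM).

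Median distances to the outline of the surface were larger in Utx-cKO. They were 93.5 µm (90.4 to 97.9) and 108 µm (103 to 112) for Gata6, 78.1 µm (77.5 to 78.8) and 101 µm (100.3 to 101) for Krt79, and 77 µm (70.2 to 82.5) and 93.9 µm (88.2 to 98.2) for Pglyrp3, in WT and Utx-cKO. Measured to the nearest cell rich in granular layer markers, the Gata6 median was lower in Utx-cKO, but the intervals overlapped. It was 54.4 µm (48.2 to 60.5) in WT and 46.8 µm (41.0 to 53.1) in Utx-cKO. The Pglyrp3 intervals overlapped too, with 32.0 µm (25.1 to 38.2) and 35.6 µm (30.2 to 40.8). Krt79 kept its direction, with 28.9 and 38.5 µm. For all epithelial transcripts the medians to the outline were 52.8 and 89.1 µm, but the strips overlapped, with 31.0 to 68.6 µm in WT and 25.7 to 110 µm in Utx-cKO, where strip 4 was the lowest of all 8. Of Pglyrp3 in epithelial cells, 39.8% in WT and 35.5% in Utx-cKO lay within 50 µm of the surface, against 8.09% and 9.42% of Gata6, 16.5% and 9.39% of Krt79, and 49.2% and 38.9% of all epithelial transcripts. The Pglyrp3 shares were thus above those of the other genes and below that of the epithelium. The Krt79 medians of the Utx-cKO strips, 92.8 to 118 µm inside epithelial cells, did not overlap those of the WT strips, 73.0 to 84.9 µm. The Gata6 medians overlapped, with 71.7 to 93.5 µm in WT and 89.0 to 117 µm in Utx-cKO. The Pglyrp3 medians overlapped, with 52.0 to 68.9 µm in WT and 31.5 to 84.0 µm in Utx-cKO.

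**Figure D4:**
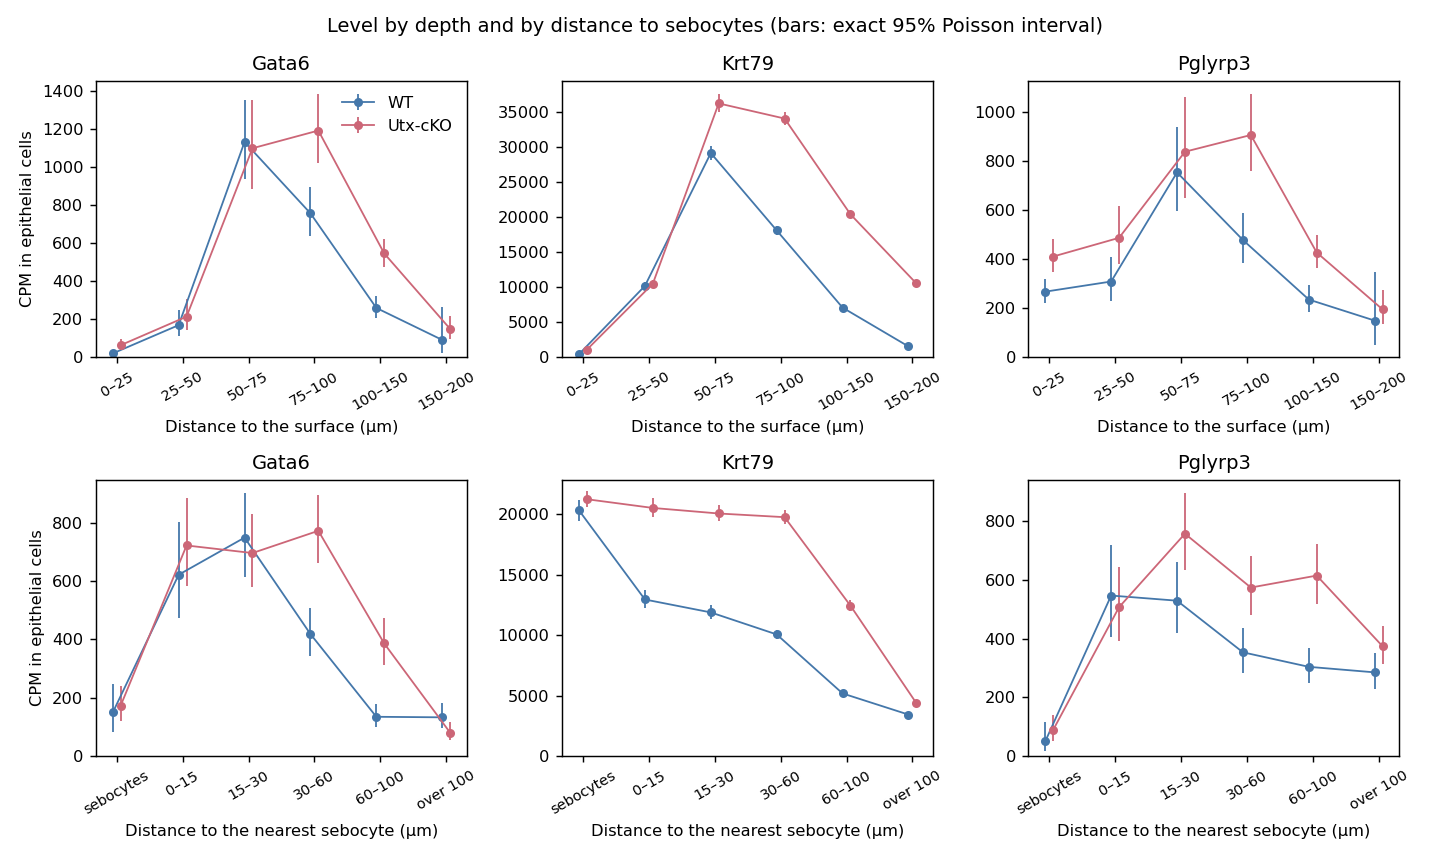
Level of each gene in epithelial cells (CPM) by distance to the surface (top) and to the nearest sebocyte (bottom), for WT (blue) and Utx-cKO (red), with exact 95% Poisson intervals; sebocytes are the first point of the bottom row. Gata6 and Krt79 peak between 50 and 100 µm below the surface, Pglyrp3 keeps 266 and 410 CPM in the outer 25 µm, and Gata6 and Pglyrp3 are low in sebocytes, where Krt79 is high.

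Counted over all epithelial cells, the 3 genes had higher levels in the Utx-cKO section, and Krt79 alone passed 1.5-fold. Krt79 was at 8348 CPM (8187 to 8511) in the WT section and 14756 CPM (14550 to 14963) in the Utx-cKO one, 1.77 times higher (log2 ratio 0.82, 0.79 to 0.86). Gata6 was at 302 CPM (272 to 334) and 415 CPM (381 to 451), 1.38 times higher (0.46, 0.27 to 0.65). Pglyrp3 was at 333 CPM (302 to 367) and 473 CPM (436 to 511), 1.42 times higher (0.50, 0.32 to 0.69). Krt79 was under 1.5-fold by mean counts per cell (0.57) and with equal cluster shares (0.26). In the main comparison 1 of the 3 genes was at least 1.5 times higher, where 12.8% of the 439 genes compared were, and 0 of 3 were as much lower, against 3.19%. Over all cells of the sections the ratios were larger, at 1.1 for Krt79, 0.71 for Gata6 and 0.66 for Pglyrp3, so that 3 of 3 passed 1.5-fold, against 15.1% of 471 genes, with 0 of 3 lower, against 2.55%. Without WT strip 1, the all-cell ratio was 0.56 for Gata6 and 0.42 for Pglyrp3, under 1.5-fold, and without Utx-cKO strip 1 it was 0.49 for Pglyrp3. The all-cell ratio was also under 1.5-fold for Gata6 at a quality of at least 30 (0.41) and by mean counts per cell (0.37), and for Pglyrp3 by mean counts per cell (0.32), over the nucleus alone (0.45) and when centred on the median gene (0.57). It passed 1.5-fold under 12 of 15 alternatives for Gata6, 15 of 15 for Krt79 and 10 of 15 for Pglyrp3.

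For Gata6 the difference depended on the quality required of the molecules. At a quality of at least 30, Gata6 in epithelial cells was at 142 and 152 CPM, from 138 and 148 counts, a log2 ratio of 0.10 (-0.24 to 0.45). Krt79 had 0.84 and Pglyrp3 0.43 at that quality. Outside the epithelial clusters, Gata6 at a quality of 20 was also higher in Utx-cKO (91.9 and 174 CPM, log2 ratio 0.92, 0.57 to 1.27), as were Krt79 (1.2) and Pglyrp3 (0.50). These cells were set apart by the markers of their clusters, and whether Krt14-Cre acted in them was not measured. Negative control probes summed to 384 molecules in WT and 626 in Utx-cKO, beside more gene transcripts in WT. The part of background in these ratios was not tested.

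The strips of a section varied, and the sections overlapped for each gene. Krt79 in epithelial cells was at 8267, 12288, 7734 and 7406 CPM in WT strips 1 to 4 and at 18240, 11781, 14191 and 13015 CPM in Utx-cKO strips 1 to 4. WT strip 2 stood above Utx-cKO strip 2, so the groups overlapped. Gata6 was at 272, 376, 280 and 332 CPM in the WT strips and at 472, 404, 470 and 243 CPM in the Utx-cKO strips, where strip 4 was the lowest of all 8. Pglyrp3 was at 253, 463, 345 and 336 CPM and at 577, 265, 548 and 322 CPM, with only Utx-cKO strips 1 and 3 above every WT strip. The 4 Utx-cKO strips were all higher than the 4 WT strips for 0 of the 3 genes, and for 3.64% of the genes compared. Over all cells this was again so for 0 of 3, and for 2.34% of the genes compared.

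**Figure D5:**
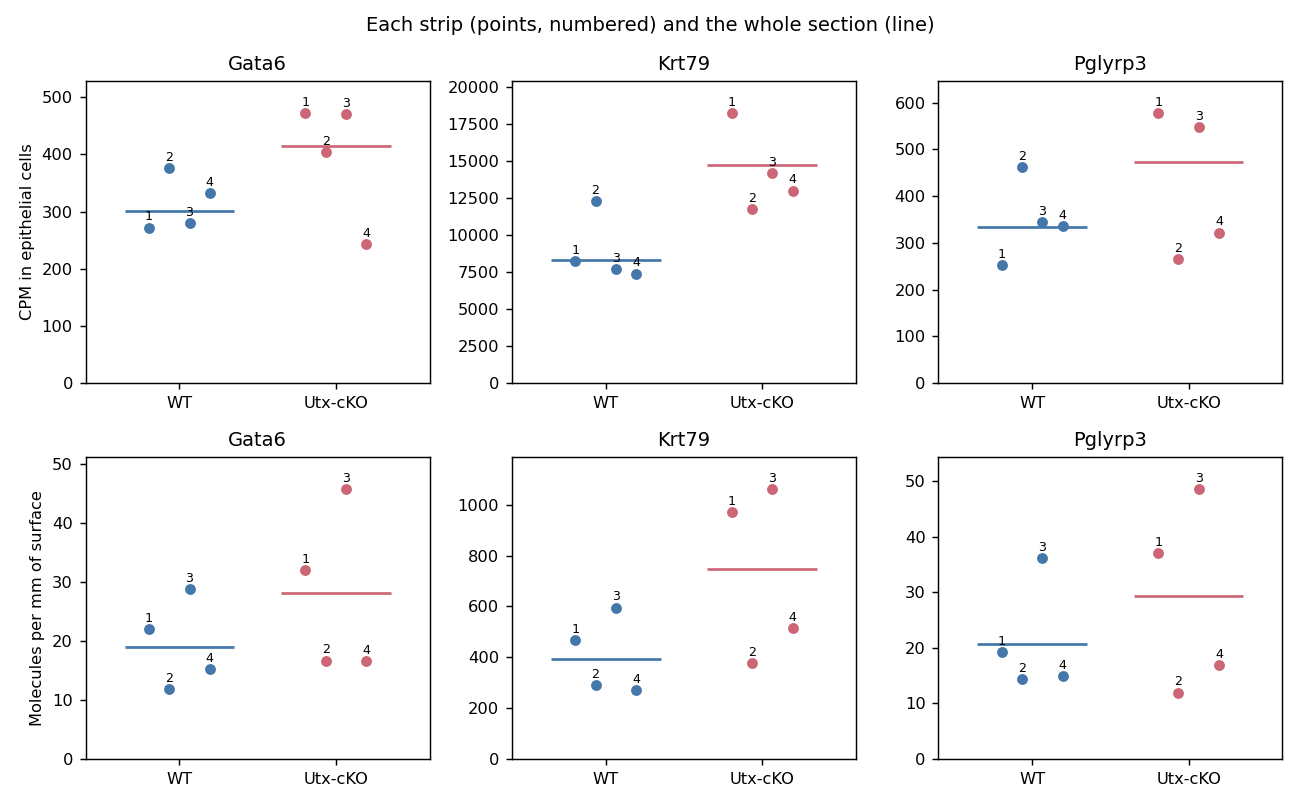
Level of each gene in epithelial cells (CPM, top) and molecules in cells per mm of surface (bottom) in each of the 4 strips of WT (blue) and Utx-cKO (red), numbered, with a line at the value of the whole section. The strips of the sections overlap for all 3 genes, and Utx-cKO strips 1 and 3 are the highest points in all 6 panels.

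In the 4 clusters that held most Krt79, its differences were smaller than over the whole epithelium. In the upper follicle and duct-like cluster the log2 ratio was 0.31 (0.25 to 0.37) for Krt79, -0.22 (-0.58 to 0.14) for Gata6 and 0.06 (-0.28 to 0.41) for Pglyrp3. In the Elovl7-led sebaceous gland-like cluster it was 0.21 (0.12 to 0.30), -0.19 (-0.73 to 0.35) and 0.18 (-0.79 to 1.2). In the Fa2h-led one it was 0.05 (-0.04 to 0.13), 0.04 (-1.17 to 1.37) and, from 3 and 15 counts, 1.29 (-0.53 to 3.72). Cluster 3 had 0.31 (0.25 to 0.38) for Krt79, 0.19 (-0.11 to 0.51) for Gata6 and 0.63 (0.17 to 1.1) for Pglyrp3. With each cluster weighted to the same share in both sections, the epithelial ratios were 0.26 for Krt79, 0.07 for Gata6 and 0.29 for Pglyrp3, against 0.82, 0.46 and 0.50 before. The wide intervals of Gata6 and Pglyrp3 within single clusters do not show equal levels, and Krt79 reached 0.78 (0.45 to 1.11) in cluster 17.

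Per length of skin surface, Krt79 differed about as much as the number of sebocytes. The strips had 27.25 mm of surface in WT and 27.75 mm in Utx-cKO. Krt79 molecules in cells numbered 394 and 749 per mm, 1.90 times more (1.85 to 1.94), and sebocytes 30.6 and 60.9 per mm, 1.99 times more (1.83 to 2.16). Gata6 had 19.0 and 28.2 molecules per mm, 1.48 times more (1.32 to 1.66), and Pglyrp3 20.6 and 29.3 per mm, 1.42 times more (1.28 to 1.59). Per sebocyte there were 12.9 and 12.3 Krt79 molecules, 0.622 and 0.463 Gata6 molecules, and 0.674 and 0.482 Pglyrp3 molecules. In WT strips Krt79 per mm was 469, 291, 595 and 271, and in Utx-cKO strips 971, 379, 1062 and 516, so these overlapped too. Sebocytes per mm were 36.8, 17.0, 53.4 and 19.6 in the WT strips and 46.5, 40, 110 and 44.5 in the Utx-cKO strips.

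Patches of Krt79 were more frequent in Utx-cKO, and a patch held a like number of molecules. There were 5.03 patches per mm in WT and 8.11 per mm in Utx-cKO, with strips from 3.61 to 7.4 and from 5.96 to 10.3, which overlapped. The median patch held 62 Krt79 molecules (quartiles 40 and 92) in WT and 67 (38 and 119) in Utx-cKO. The upper end differed more. The largest patch held 237 molecules in WT and 527 in Utx-cKO. Patches with a sebocyte had medians of 66 and 91 Krt79 molecules, and those without one 55.5 and 44. Per strip the median ran from 55 to 68 in WT, while it was 106, 49.5, 99.5 and 51.5 in Utx-cKO strips 1 to 4.

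Relative to Krt79, patches in Utx-cKO held less Gata6 when pooled over the section. Patches had 34.3 Gata6 molecules per 1000 Krt79 (30.8 to 38.1) in WT and 26.6 (24.4 to 28.9) in Utx-cKO, while Pglyrp3 was at 23.0 and 22.0. By counts in epithelial cells the strips overlapped in this respect. Utx-cKO strip 2 had 70 Gata6 beside 2042 Krt79 counts, relatively more than WT strip 2 with 56 beside 1832. The share of patches with Gata6 was 75% to 87.2% in WT strips. In Utx-cKO it was 85.5% in strip 1 and 82.4% in strip 3, but 50% in strip 2 and 45.2% in strip 4. The median patch held 49.5 and 51.5 Krt79 molecules in Utx-cKO strips 2 and 4, fewer than in strips 1 and 3. In WT strips 2 and 4 it held 55 and 56.5, and 79.2% and 75% of patches had Gata6. The part of patch size in these shares was not tested.

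Over squares of 40 µm of epithelium, 1693 in WT and 2135 in Utx-cKO, Krt79 was the gene most like Gata6, with a mean Pearson correlation of 0.43 over the 2 sections. Among the other genes most like Gata6 were Sprr1a (0.43), a cornified envelope precursor, Acsl4 (0.34), an acyl-CoA synthetase, Sostdc1 (0.30), an inhibitor of BMP and Wnt signals, and Tm4sf1 (0.28). The genes most like Krt79 were Acsl4 (0.60), the lipid droplet gene Cidea (0.58), Akr1c18 (0.56), Sprr1a (0.53) and Fa2h (0.46). Gata6 was the ninth gene in likeness to Krt79, and Pglyrp3 number 48 (0.16). Among the genes most like Pglyrp3 were Sprr1a (0.25), the tight junction gene Cldn4 (0.23), Krt17 (0.20) and Epcam (0.18), with Gata6 at 0.18. Squares of 1 section share a library and depth and are not independent, and the correlations with the sparse genes are weak, so they are given as description only.

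Epithelial cells with at least 2 molecules of the 3 genes together numbered 2384 in WT and 4554 in Utx-cKO, of which 466 and 1020 were sebocytes. Because Krt79 supplies most molecules, these are mainly Krt79 cells. Sebaceous genes stood highest in them against other epithelial cells. The fatty acid elongase Elovl5 was 11.4 and 7.41 times higher, Cyp1a1, a target of the aryl hydrocarbon receptor, 10.3 and 6.94 times, Fa2h 10.7 and 6.43 times, and Pparg, a regulator of lipid cells, 8.58 and 5.31 times. Elovl3, Cidea, Elovl6 and Scd1 were 5.05 to 9.64 times higher.

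In these cells, some genes of the upper follicle and duct list had higher levels in Utx-cKO. Cidea (0.66), Aldh1a3, a retinoic acid synthase (0.66), and Krt6b (0.59, -0.01 to 1.22) were at least 1.5 times higher. Sostdc1 (-0.29), Sprr1a (-0.08) and Krt17 (0.33) were not past 1.5-fold. Krt6b was at 0.31 and Aldh1a3 at 0.48 without Utx-cKO strip 1, and Cidea at 0.52 without Utx-cKO strip 4, all under 1.5-fold, and the strips overlapped for each of them. Of 11 sebaceous gland genes with at least 100 counts, 2 were higher, Elovl6 (0.87) and Cidea, and 0 lower, with a median log2 ratio of 0.38, where 12.6% of 340 genes were higher and 12.1% lower, with a median of -0.01. Of 3 antimicrobial and barrier genes, Ccl20 was higher (0.72) and 0 lower, with Il17a at 0.21 and the beta-defensin Defb1 at -0.43; Ccl20 was at 0.21 without Utx-cKO strip 3. Of 8 regulators of GATA and follicle biology, only Aldh1a3 was past 1.5-fold (median -0.05), with Notch1 at -0.05, Ahr at -0.08 and Crabp2 at -0.38.

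The largest differences in these cells lay outside those lists. Highest in Utx-cKO were Gsdmc, a pore-forming gasdermin (2.29, 1.90 to 2.70), Rgs4, a regulator of G protein signals (2.14, 1.81 to 2.47), Elf3, an epithelial transcription factor (2.00, 1.39 to 2.67), and Sprr2a2, a cornified envelope precursor (1.94, 1.71 to 2.17). Their strips overlapped, and without Utx-cKO strip 1 the ratios were 1.38, 1.35, 1.41 and 0.59. Lowest were the cornified layer gene Hrnr (-1.46, -1.65 to -1.27), the T cell receptor subunits Cd3g (-1.16, -1.54 to -0.79) and Cd3e (-1.11, -1.41 to -0.80), and the follicle regulator Lhx2 (-1.10, -1.35 to -0.85). For Hrnr, Cd3g and Cd3e every Utx-cKO strip lay below every WT strip. These genes were picked for their low ratios, and how many of the 340 genes compared had strips apart in this way was not counted. Cd3e and Cd3g mark T cells, and the part of T cell transcripts in the other ratios was not tested.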

How the data were processed

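Whole skin was profiled in 1 WT and 1 Utx-cKO section with a custom Xenium panel, per the labels' protocols. The deposited tables list each decoded molecule with its position in µm, a quality score of at most 40 and its cell, and each segmented cell with its transcript count, per the file headers. For decoding and segmentation, software was not given in the sources used here. Molecules with a score of at least 20 and cells with at least 20 transcripts were kept. Cells were clustered (leidenalg 0.10.2, 15 neighbours, 30 components, resolution 1) without the 3 genes. Clusters with keratinocyte markers at 7% or more of their transcripts were taken as epithelial, a limit set after the data were seen. No doublet caller was run, and overlapping cells in the section were not separated. The upper outline of the tissue gave the surface, and distances to sebocytes run to cell centres. Distances to sebocytes and to the surface are within the plane of the section. Levels are counts scaled to a common total of panel counts (CPM), with exact 95% Poisson or Clopper-Pearson intervals. Genes with at least 200 counts over both sections, or 100 in the cells with at least 2 molecules of the 3 genes, were compared, and 1.5-fold was the limit for counting a gene as higher or lower. Apart from the 3 genes, the genes named are the 5 of highest correlation with each gene, the 8 of highest fold in cells with at least 2 molecules of the 3 genes, the members of 4 lists, and the 4 highest and 4 lowest ratios in those cells. A gene that these rules select, and the count over its list, are not reported here. The 3 genes and the lists were chosen with earlier results of these data known. The ratios, the depth-matched multiples and the intervals of medians were tested on simulated data. The clusters, the surface outline, the distances and the patches were not, and no variation between strips was simulated. Python 3.11.15, numpy 2.4.6, scipy 1.17.1, pandas 2.3.3 and scikit-learn 1.9.0 were used. A pair of cell names occurred in both sections (2 names), and cells were kept apart by section.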

Additional observations from a re-analysis of the deposited data

How the results depend on the processing

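The ratios of Utx-cKO over WT were above 0 for all 3 genes under every alternative run, and passed 1.5-fold in epithelial cells under 1 of 17 for Gata6, 15 of 17 for Krt79 and 2 of 17 for Pglyrp3. The following are log2 ratios in epithelial cells. A quality of at least 30 gave Gata6 0.10. Mean counts per cell gave Gata6 0.21, Krt79 0.57 and Pglyrp3 0.26. Equal cluster shares gave Gata6 0.073, Krt79 0.26 and Pglyrp3 0.29. Transcripts over the nucleus gave Krt79 0.78. Centring on the median gene gave Krt79 0.70. Totals without the 10 most abundant genes gave Krt79 0.75. Cells called epithelial by their own markers gave Krt79 0.86. In all cells, the log2 ratios follow. A quality of at least 30 gave Gata6 0.41. Mean counts per cell gave Gata6 0.37, Krt79 0.76 and Pglyrp3 0.32. Transcripts over the nucleus gave Krt79 0.96 and Pglyrp3 0.45. Centring on the median gene gave Krt79 1.01. Cells of at least 40 transcripts gave Krt79 1.14. Leaving out each strip gave Gata6 0.33 to 0.61, Krt79 0.68 to 0.92, Pglyrp3 0.35 to 0.62 in epithelial cells and Gata6 0.56 to 0.79, Krt79 0.89 to 1.24, Pglyrp3 0.42 to 0.77 in all cells. Median distances to the nearest sebocyte in µm moved as follows. At least 3 molecules for a sebocyte gave Gata6 WT 57.8, Krt79 WT 40.2, Pglyrp3 WT 75.6, Gata6 Utx-cKO 49.8, Krt79 Utx-cKO 30.1 and Pglyrp3 Utx-cKO 63.3. Cells of the sebaceous gland-like clusters as sebocytes gave Gata6 WT 32.7, Krt79 WT 17.5, Pglyrp3 WT 54.8, Gata6 Utx-cKO 33.4, Krt79 Utx-cKO 15.4 and Pglyrp3 Utx-cKO 49.5. A quality of at least 30 gave Gata6 WT 54.1, Gata6 Utx-cKO 49.9 and Krt79 Utx-cKO 25.7. Molecules in kept cells gave Gata6 WT 40.3 and Gata6 Utx-cKO 38.3. Molecules in epithelial cells gave Gata6 WT 30.5, Gata6 Utx-cKO 32.3, Krt79 Utx-cKO 26.3 and Pglyrp3 Utx-cKO 49.3. Leaving out each strip gave Gata6 WT 40.3 to 56.9, Krt79 WT 29.0 to 41.1, Pglyrp3 WT 55.7 to 86.3, Gata6 Utx-cKO 37.0 to 52.8, Krt79 Utx-cKO 20.5 to 35.9, Pglyrp3 Utx-cKO 49.7 to 75.6. Median distances to the surface in µm moved as follows. A quality of at least 30 gave Gata6 WT 100.2, Krt79 WT 78.9, Gata6 Utx-cKO 121 and Krt79 Utx-cKO 103. Molecules in epithelial cells gave Gata6 WT 81.2, Krt79 WT 77.4, Pglyrp3 WT 62.1, Gata6 Utx-cKO 95.7, Krt79 Utx-cKO 100.3 and Pglyrp3 Utx-cKO 80.2. Distance to the nearest cell rich in granular layer markers gave Gata6 WT 54.4, Krt79 WT 28.9, Pglyrp3 WT 32.0, Gata6 Utx-cKO 46.8, Krt79 Utx-cKO 38.5 and Pglyrp3 Utx-cKO 35.6. For Gata6 this turns the direction between the sections, with intervals that overlap. Leaving out each strip gave Gata6 WT 90.7 to 100.0, Krt79 WT 76.0 to 82.4, Pglyrp3 WT 72.1 to 79.5, Gata6 Utx-cKO 104 to 119, Krt79 Utx-cKO 98.8 to 108, Pglyrp3 Utx-cKO 92.9 to 99.6. For joint detection, as multiples of the depth-matched number unless stated, the values were as follows. Squares of 20 µm as the unit gave Gata6-Krt79 WT 2.53, Gata6-Krt79 Utx-cKO 1.86 and Krt79-Pglyrp3 Utx-cKO 1.29. Cells thinned to 20 transcripts, with no depth matching, gave Gata6-Pglyrp3 WT 5.76, Gata6-Krt79 Utx-cKO 2.39, Gata6-Pglyrp3 Utx-cKO 4.01 and Krt79-Pglyrp3 Utx-cKO 1.74. Transcripts over the nucleus gave Gata6-Pglyrp3 WT 1.86, Gata6-Pglyrp3 Utx-cKO 1.36 and Krt79-Pglyrp3 Utx-cKO 1.74. Leaving out each strip gave Gata6-Krt79 WT 2.93 to 3.29, Gata6-Pglyrp3 WT 2.52 to 3.18, Krt79-Pglyrp3 WT 1.46 to 1.74, Gata6-Krt79 Utx-cKO 2.01 to 2.26, Gata6-Pglyrp3 Utx-cKO 1.85 to 2.24, Krt79-Pglyrp3 Utx-cKO 1.41 to 1.59. All of these are above 1, but the interval included 1 for Gata6-Pglyrp3 over the nucleus in WT (0.805 to 3.67) and Utx-cKO (0.650 to 2.49), for Gata6-Pglyrp3 in Utx-cKO at a quality of at least 30 (0.952 to 4.35) and for Krt79-Pglyrp3 in WT after thinning (0.983 to 2.37). The restriction to molecules in epithelial cells, and leaving out strips for the genes named in cells with at least 2 molecules, were chosen after seeing the data. No paired analysis was possible because each group is 1 section and strip numbers pair nothing.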

Other observations

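Gata6 was also detected outside the epithelium. In the fibroblast-like cluster led by Sfrp2 and Aldh1a3 it had 19 and 27 counts, or 202 CPM (122 to 315) in the WT section and 450.4 CPM (297 to 655) in the Utx-cKO one, where Krt79 stood at 95.6 and 167 CPM. In the endothelial-like cluster Gata6 had 28 and 36 counts, or 198 CPM (132 to 287) and 270.1 CPM (189 to 374). The cluster led by Kit and Gata2 held 10 WT and 6 Utx-cKO counts, or 1280.1 CPM (614 to 2354) and 352 CPM (129 to 767), at median depths of 27 and 25 transcripts.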
